A study of Mus musculus with 6 samples.

Results

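Integrin genes of epithelial cells and of matrix adhesion were examined in mouse mammary tumours, namely the alpha subunit genes Itga2, Itga3, Itga5, Itga6 and Itgav and the beta subunit genes Itgb1, Itgb4, Itgb5 and Itgb6. All 9 genes were taken with every probe set that the platform annotation assigns to 1 of these symbols alone, which gave 24 of 22626 non-control probe sets. The samples were mammary tumours of adult F1 females from 2 crosses. AKR F1 tumours came from the inbred strain AKR/J crossed with PyMT mice, and DBA F1 tumours from the inbred strain DBA/2J crossed with PyMT mice, with 3 arrays each. Every animal thus had a PyMT parent. PyMT denotes the polyomavirus middle T antigen, a transgene that drives mammary tumours, and neither its promoter nor the strain of the PyMT parent is stated in the labels. The tumours were snap frozen, and the labels list no drug or other experimental treatment. The comparison addresses which transcripts differ at baseline between the genotypes, and differences are given as AKR minus DBA on the log2 scale. Whether the 6 tumours are from 6 animals is not stated, and the p-values cover the spread among these arrays alone.

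Integrins are heterodimers of 1 alpha and 1 beta subunit that span the plasma membrane, bind matrix proteins outside the cell and connect to the cytoskeleton inside it. In mammary epithelium the laminin receptor alpha6beta4 sits in hemidesmosomes, which anchor keratin filaments to the basement membrane. The beta1 subunit pairs with many alpha subunits, among them alpha2 for collagen, alpha3 and alpha6 for laminin and alpha5 for fibronectin. The alphav subunit pairs with beta1, beta5 and beta6, and its dimers recognise the RGD motif of matrix proteins such as vitronectin and fibronectin. The alphavbeta6 dimer of epithelial cells also releases active TGF-beta from its latent complex.

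The beta subunit genes did not lie on the same side of zero. Itgb4 and Itgb5 lay higher in AKR F1 tumours, at log2 differences of 0.82 and 0.36 for their brightest probe sets, whereas Itgb1 lay lower at -0.77. None of the 24 probe sets passed an adjusted p of 0.05 by limma over all probe sets, where 0.0972% of all probe sets did. At an adjusted p of 0.10 there were 3, a probe set each of Itgb4, Itgb5 and Itgav, against a background of 3.58%. At an unadjusted limma p of 0.05 there were 11 of 24, against 26.1% of all probe sets. Of these, 7 lay higher in AKR F1 tumours, where the background was 12.9%, and 4 lay lower, where it was 13.2%. The 3 AKR values did not overlap the 3 DBA values in 12 of 24 probe sets, against 39.2% of all probe sets. In 8 of these the AKR values were the higher ones (background 23.4%) and in 4 the lower ones (background 15.8%). The 24 probe sets are repeat readings of 9 genes and are not independent. The 11 came from 6 genes, and 4 of 9 genes reached that unadjusted limma p at their brightest probe set. The 12 without overlap came from 7 genes, and 5 of 9 genes did not overlap at their brightest probe set.

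**Figure D1:**
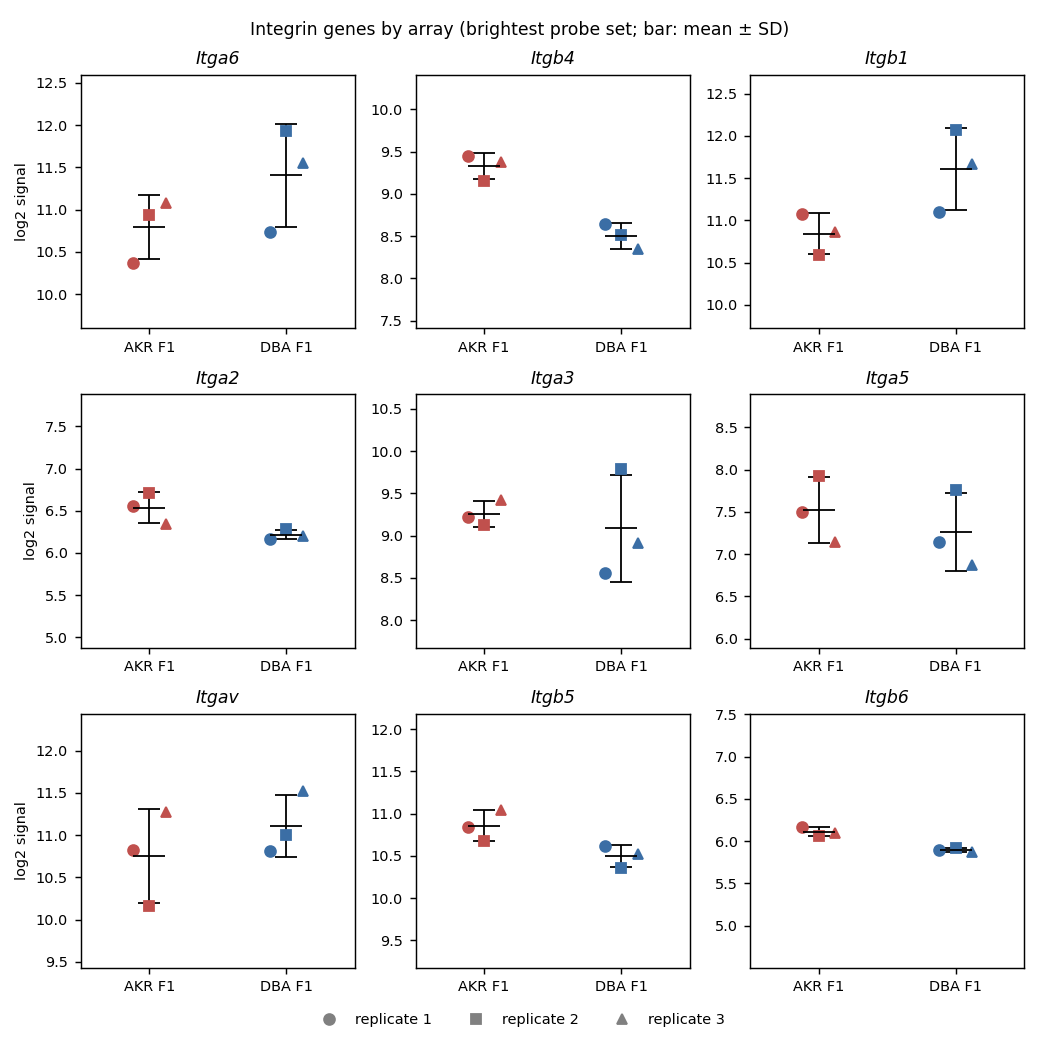
Log2 signal of the brightest probe set of each integrin gene on each array, with AKR F1 tumours in red and DBA F1 tumours in blue, point shape for replicate and bars for mean ± SD (n = 3 each). Each panel spans 3 log2 units, and the crosses are well apart for Itgb4 and share their range for Itga3, Itga5, Itga6 and Itgav.

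The median difference over the 24 probe sets was 0.22, and that over all probe sets was 0.049. Signal level bears on this, because the median difference of all probe sets ran from 0.23 in decile 3 of mean signal to -0.21 in decile 10. The brightest probe sets of Itga6, Itgav, Itgb1 and Itgb5 lay in decile 10, that of Itgb4 in decile 8 and those of Itga2 and Itgb6 in decile 3. The differences of Itgb4 and Itgb5 thus ran opposite to the median of their deciles, while those of Itga2 and Itgb6 were close to it. Those of Itga6, Itgav and Itgb1 ran the same way as decile 10. With its median taken off they were -0.40, -0.14 and -0.56, and the other Itga6 probe set was at -0.097. As deposited the arrays had medians of 7.52 to 7.57. Of the 24 probe sets 6 (4 of Itgb1 and both of Itgb6) had a mean in the lowest 25% of signals, where a value can lie at background.

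Of 8 luminal epithelial markers, 5 lay higher and 3 lower in AKR F1 tumours, at a median of 0.15, and none passed by limma. The differences ran from -0.43 for the keratin gene Krt19 to 1.0 for the claudin gene Cldn3. The mean of the list was 11.59, 11.32 and 11.59 on the AKR arrays, against 11.33, 11.13 and 11.41 on the DBA arrays. Both Epcam and Krt8 were bright in both crosses and overlapped, with Epcam at 12.94 to 13.17 in AKR and 12.78 to 13.09 in DBA F1 tumours and Krt8 at 12.40 to 12.75 in AKR and 12.13 to 12.62 in DBA F1 tumours. Some arrays stood apart in markers of other tissues. The mean of 8 skeletal muscle markers was 8.58 to 10.09 on the AKR arrays, against 11.83 on DBA replicate 1 and 6.28 and 6.25 on DBA replicates 2 and 3. The mean of 4 measured adipocyte markers was 9.46 on DBA replicate 1 and at most 7.40 elsewhere, and that of 4 measured salivary gland markers was 11.58 on AKR replicate 2 and at most 7.65 elsewhere. Over all probe sets AKR replicate 2 correlated with the other arrays at Pearson r of 0.915 to 0.965, and the other arrays with each other at 0.962 to 0.991. The mean of the fibroblast markers was 10.13, 9.08 and 10.13 on the AKR arrays, against 10.26, 8.32 and 10.01 on the DBA arrays. It was thus lowest on DBA replicate 2, where the brightest probe sets of Itga3, Itga6 and Itgb1 were highest. The part of these markers in the integrin differences was not tested. In bulk tumour RNA, fewer cells of a type and less RNA per cell cannot be told apart.

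Itgb4 encodes the beta4 subunit, whose long cytoplasmic tail binds the hemidesmosome plaque. Its only probe set read 9.45, 9.15 and 9.38 in AKR F1 tumours, against 8.64, 8.52 and 8.35 in DBA F1 tumours. All AKR values lay above all DBA values, and the gap between the crosses exceeded the spread within either. The difference was 0.82 (SE 0.139, 95% interval 0.49 to 1.15), or 1.77-fold, with an adjusted p of 0.0837 by limma. Without AKR replicate 2 and DBA replicate 1 it was 0.98, and it then passed at an adjusted p of 0.0311 by limma. These arrays stood apart in the markers above. With both left out 657 of all probe sets passed, against 22 with all arrays, so that pass is not particular to Itgb4. Over 14 alternative settings, some of which cannot change a difference, the Itgb4 difference ran from 0.75 to 0.98. Of the 8 luminal markers, Cldn3 and Elf3 alone lay higher in AKR F1 tumours without overlap. The others overlapped, and Krt19 (-0.43), Cdh1 (-0.15) and Krt18 (-0.060) lay lower. Cldn3, a tight junction gene, read 12.63, 12.35 and 12.52 in AKR F1 tumours, against 11.87, 11.17 and 11.46 in DBA F1 tumours (1.0, limma adjusted p = 0.0857). Elf3, an epithelial transcription factor gene, read 8.82, 9.11 and 8.80 in AKR F1 tumours, against 8.37, 8.20 and 8.45 in DBA F1 tumours (0.57, limma adjusted p = 0.104). Their part in the differences of Itgb4 and Itgb5 was not tested.

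Itga6 encodes the alpha6 subunit, the sole alpha partner of beta4 and also a partner of beta1. Its brightest probe set read 10.37, 10.93 and 11.08 in AKR F1 tumours, against 10.74, 11.93 and 11.55 in DBA F1 tumours. The crosses overlapped, since DBA replicate 1 lay below AKR replicates 2 and 3. The difference was -0.61 (SE 0.331, limma adjusted p = 0.26), and it was -0.35 without DBA replicate 2 and also -0.35 after quantile normalization. With both AKR replicate 2 and DBA replicate 1 left out it was -1.01. The other Itga6 probe set went the same way, at -0.31, and was -0.053 after quantile normalization.

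Itgb1 encodes beta1, the partner of the widest set of alpha subunits. At the brightest of its 6 probe sets it read 11.07, 10.58 and 10.86 in AKR F1 tumours, against 11.10, 12.07 and 11.66 in DBA F1 tumours. The crosses did not overlap, although AKR replicate 1 and DBA replicate 1 were almost level. The difference was -0.77 (SE 0.261), or 1.71-fold lower in AKR F1 tumours, with an adjusted p of 0.148 by limma. A further bright Itgb1 probe set, 1426918_at, read 10.51, 9.49 and 10.14 in AKR F1 tumours, against 10.70, 11.48 and 11.27 in DBA F1 tumours. It also did not overlap, and its difference was -1.11 (limma adjusted p = 0.12). Without AKR replicate 2 and DBA replicate 1 it was -1.06, with an adjusted p of 0.0474 by limma. Over all probe sets 657 passed with these arrays left out, against 22 with all arrays. The 4 dim Itgb1 probe sets disagreed among themselves, at -0.65, -0.087, 0.023 and 0.46, with means of 4.02 to 5.83. The crosses did not overlap at 1427771_x_at (-0.65, limma adjusted p = 0.146) or, in the opposite direction, at 1438119_at (0.46, limma adjusted p = 0.11). The latter had the lowest adjusted p of the Itgb1 probe sets, so the direction of Itgb1 depended on the probe set.

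**Figure D2:**
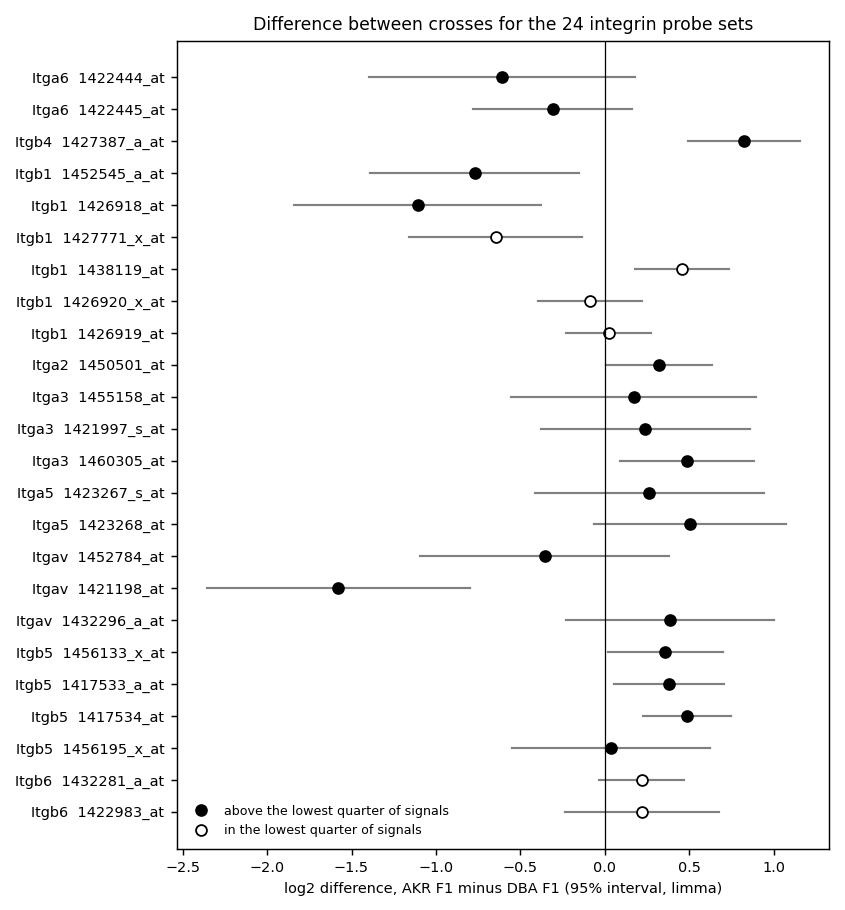
Log2 difference of AKR F1 minus DBA F1 tumours for each of the 24 integrin probe sets (points) with limma's 95% interval (lines), open points marking the 6 probe sets in the lowest 25% of signals. The Itgb4 and all 4 Itgb5 points lie right of zero, both Itga6 points and both bright Itgb1 points lie left of it, and the 3 Itgav points disagree.

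The brightest probe sets of Itga2, Itga3 and Itga5, which encode alpha partners of beta1, had differences above zero that did not pass. Itga2, for the collagen receptor alpha2, read 6.56, 6.71 and 6.35 in AKR F1 tumours, against 6.17, 6.28 and 6.21 in DBA F1 tumours. The crosses did not overlap, and the difference was 0.32 (SE 0.132, limma adjusted p = 0.187), but it was 0.17 after quantile normalization. Itga3, for the laminin receptor alpha3, read 9.22, 9.13 and 9.43 at its brightest probe set in AKR F1 tumours, against 8.56, 9.79 and 8.92 in DBA F1 tumours. DBA replicate 2 was above all AKR values and DBA replicates 1 and 3 below them, so the difference of 0.17 lay within the spread and turned to -0.094 without DBA replicate 1. Another Itga3 probe set, 1460305_at, did not overlap, with 7.84, 7.63 and 7.62 in AKR F1 tumours against 7.18, 7.49 and 6.96 in DBA F1 tumours (difference 0.49, limma adjusted p = 0.151). Itga5, for the fibronectin receptor alpha5, read 7.50, 7.93 and 7.14 in AKR F1 tumours, against 7.15, 7.76 and 6.87 in DBA F1 tumours, which overlapped. Its difference was 0.26 (SE 0.285), and 0.51 at its other probe set, and neither passed. The value at the brightest probe set rested on single arrays, being 0.061 with AKR replicate 2 left out, 0.067 with DBA replicate 3 left out and 0.0050 with both AKR replicate 2 and DBA replicate 1 left out.

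Itgav encodes alphav, the common alpha subunit of the RGD receptors. Its brightest probe set read 10.83, 10.17 and 11.27 in AKR F1 tumours, against 10.81, 11.00 and 11.52 in DBA F1 tumours. These values overlapped, with a difference of -0.36 (SE 0.311, limma adjusted p = 0.443) that was -0.063 without AKR replicate 2 and -0.11 after quantile normalization. A dimmer Itgav probe set, 1421198_at, differed far more. It read 7.22, 6.53 and 7.17 in AKR F1 tumours, against 7.87, 8.93 and 8.87 in DBA F1 tumours. The crosses did not overlap there, and the difference of -1.58 (SE 0.328, limma adjusted p = 0.0917), or 2.99-fold lower in AKR F1 tumours, was the largest in size of the 24. It passed with DBA replicate 1 left out (-1.92, limma adjusted p = 0.0297). With AKR replicate 2 left out in addition it also passed (-1.70, limma adjusted p = 0.00671). Over all probe sets 263 and 657 passed in these settings, against 22 with all arrays. The remaining Itgav probe set, 1432296_a_at, differed by 0.39 (limma adjusted p = 0.337), and by 0.095 without AKR replicate 2 and 0.12 without that array and DBA replicate 1. The probe sequences behind these readings were not used here.

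Itgb5 encodes beta5, which pairs with alphav in a vitronectin receptor. Its brightest probe set read 10.84, 10.68 and 11.05 in AKR F1 tumours, against 10.62, 10.36 and 10.52 in DBA F1 tumours. The crosses did not overlap, and the difference was 0.36 (SE 0.143, limma adjusted p = 0.182). The probe set 1417534_at was tighter, at 9.52, 9.63 and 9.57 in AKR F1 tumours against 9.01, 9.09 and 9.15 in DBA F1 tumours, with a difference of 0.49 (SE 0.109) and an adjusted p of 0.0961 by limma. Another Itgb5 probe set differed by 0.38 without overlap, and the dimmest by 0.035 with overlap. The 0.035 turned to -0.13 without AKR replicate 3 or DBA replicate 2 and to -0.038 without AKR replicate 1. After quantile normalization the brightest differed by 0.60.

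Itgb6 encodes beta6, the epithelial partner of alphav. Both probe sets were dim, and the brighter read 6.17, 6.07 and 6.10 in AKR F1 tumours, against 5.90, 5.91 and 5.87 in DBA F1 tumours. The crosses did not overlap, but the difference of 0.22 (SE 0.106, limma adjusted p = 0.226) was about the median of its signal decile, 0.23, and was 0.047 after quantile normalization. The other Itgb6 probe set, 1422983_at, read 5.86, 6.49 and 5.89 in AKR F1 tumours, against 5.79, 5.83 and 5.95 in DBA F1 tumours. The crosses overlapped, and the difference of 0.22 rested on AKR replicate 2, being 0.015 without it and -0.019 without it and DBA replicate 1.

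Of the 7 genes with more than 1 probe set, 5 had all probe sets on the same side of zero. These were Itga3, Itga5, Itgb5 and Itgb6, higher in AKR F1 tumours, and Itga6, lower. Itgb1 and Itgav had probe sets on both sides. With single arrays left out 4 or 5 of the 7 genes had 1 direction, since Itgb5 dropped out without AKR replicate 1, AKR replicate 3 or DBA replicate 2, and Itga3 without DBA replicate 1. Without AKR replicate 2 and DBA replicate 1 there were 3 (Itgb5, Itga6 and Itga5). Only Itga5 and Itga6 kept 1 direction under each of these omissions.

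The proximal promoters of Itgb5 and Itgb1 are shown because their brightest probe sets lay on opposite sides of zero between the crosses. Neither gene passed by limma, and the direction of Itgb1 depended on the probe set. No window was available for Itgb4 or Itga6. The windows run from 250 bases before to 50 bases after the annotated start, from RefSeq on GRCm38.p6, at chr16:33829415-33829714 and chr8:128685404-128685703, both on the plus strand, and capitals mark GC boxes (GGGCGG on either strand).
Itgb5: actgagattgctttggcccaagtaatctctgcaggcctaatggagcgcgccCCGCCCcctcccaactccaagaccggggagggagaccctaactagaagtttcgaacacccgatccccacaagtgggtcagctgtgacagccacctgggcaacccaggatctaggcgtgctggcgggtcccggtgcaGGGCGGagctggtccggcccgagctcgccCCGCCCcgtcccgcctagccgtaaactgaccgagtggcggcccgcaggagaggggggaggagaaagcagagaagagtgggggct
Itgb1: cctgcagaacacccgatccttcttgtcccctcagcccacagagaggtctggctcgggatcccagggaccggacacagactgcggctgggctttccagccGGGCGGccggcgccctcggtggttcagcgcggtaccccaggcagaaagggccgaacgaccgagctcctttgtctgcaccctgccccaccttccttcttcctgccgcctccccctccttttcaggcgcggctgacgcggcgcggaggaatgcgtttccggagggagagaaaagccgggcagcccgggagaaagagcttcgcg
The Itgb5 window held 3 GC boxes and 20 CpG dinucleotides, and the Itgb1 window 1 GC box and 27. A GC box was present in 35.7% of 32851 such windows of all genes, whose median CpG count was 7. Neither window held an AP-1 motif (TGANTCA, found in 7.81% of windows) or a TATA box (TATAAA, found in 13.6%), on either strand. The strain sequences of AKR/J and DBA/2J were not used here.

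Since subunits act as pairs, the log2 ratio of the brightest probe sets of 8 known dimers was compared between crosses. The absolute value of such a ratio has no meaning between probe sets, so only its shift between crosses is given. The decile trend enters these shifts where the paired probe sets differ in signal level. The ratio of Itga6 to Itgb4 was 0.92, 1.78 and 1.70 in AKR F1 tumours, against 2.10, 3.41 and 3.20 in DBA F1 tumours. It did not overlap, and was 1.43 log2 units (2.70-fold) lower in AKR F1 tumours. The ratio of Itga6 to Itgb1 shifted by 0.16 and overlapped. Relative to Itgb1, the alpha genes Itga2 (1.09), Itga5 (1.03) and Itga3 (0.94) were shifted upward in AKR F1 tumours without overlap. These 3 ratios share Itgb1 as their denominator and are not independent. With the median difference of its own signal decile taken from each gene, a step chosen after the data were seen, the shifts were 0.65 for Itga2, 0.70 for Itga5 and 0.87 for Itga3 over Itgb1, and -1.36 for Itga6 over Itgb4. The crosses then overlapped for Itga2 (exact permutation p = 0.3) and Itga5 (exact permutation p = 0.2) over Itgb1, and stayed apart for the other 2. Itgav shifted by 0.41 against Itgb1, by -0.71 against Itgb5 and by -0.58 against Itgb6 (-0.13 with the decile medians taken off), all with overlap. At the dimmer probe set 1421198_at the Itgav difference was -1.58, below the -0.77 of Itgb1. The direction of the Itgav shift against Itgb1 thus depended on the probe set. With 3 against 3 arrays an exact two-sided permutation test cannot give p below 0.1, and that value was reached by the 4 dimers without overlap (adjusted p = 0.167 over 10 pairs). The other 2 pairs, chosen after their values were seen, were beta genes, where Itgb4 shifted by 1.59 and Itgb5 by 1.13 against Itgb1, again at exact p = 0.1.

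**Figure D3:**
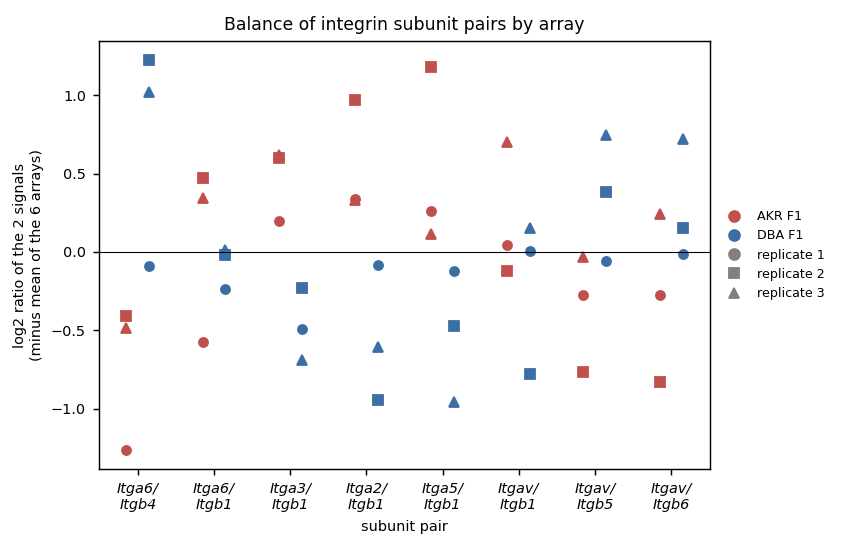
Log2 ratio of the signals of 8 integrin subunit pairs on each array, minus the mean of the 6 arrays, with AKR F1 tumours in red, DBA F1 tumours in blue and point shape for replicate. The crosses separate for Itga6 over Itgb4 and for Itga3, Itga2 and Itga5 over Itgb1, and overlap for the other 4 pairs.

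Across the 6 arrays, which include the difference between crosses, Itgb4 correlated with Itgb6 (Pearson r = 0.98) and Itgb5 (0.86), and Itga6 with Itgb1 (0.76), while Itga6 and Itgb4 ran opposite (-0.70). Taken as deviations from the means of the crosses, these were 0.75, 0.50, 0.59 and -0.55. These are descriptions over 6 arrays. By Pearson r over the 6 arrays among 12393 genes, the genes most like Itgb1 were Emp3 (0.999), a tetraspan membrane protein gene, and Fam114a1 (0.997). Those most like Itgb4 were Acads (0.997), a mitochondrial acyl-CoA dehydrogenase gene, and Crp (0.996). Those most like Itgb6 were Lsr (0.997), which encodes a protein of tricellular junctions, and Zmat5 (0.995). For Itgb5 they were Mecom and Cbx1, for Itga6 Ap3m2 and Atp8a1, for Itgav Atp11a and Ppp2ca, for Itga2 4930524B15Rik and Ptcd1, for Itga3 Grina and Ddb1, and for Itga5 Snapc2 and Krtap6-2, at r of 0.978 or above. A search over 12393 genes with 6 arrays can give r this high by itself.

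The order of Itgb1 and Itga6 within the DBA arrays, highest on replicate 2 and lowest on replicate 1, was shared with the smooth muscle and myoepithelial gene Acta2. Acta2 read 10.09, 9.77 and 9.72 in AKR F1 tumours, against 10.37, 13.26 and 12.13 in DBA F1 tumours. The myosin kinase gene Mylk did the same, with 8.30 to 8.51 in AKR F1 tumours against 8.80, 11.27 and 11.11 in DBA F1 tumours. The mean of all 9 basal and myoepithelial markers was 7.82, 8.12 and 7.72 on the AKR arrays, against 7.70, 8.59 and 8.89 on the DBA arrays. By limma over all probe sets none of these 9 passed, with 4 on the AKR side and 5 on the DBA side. The basal keratin gene Krt14 was ordered differently, at 9.76, 9.80 and 9.55 in AKR F1 tumours against 9.33, 7.43 and 10.21 in DBA F1 tumours. Their part in the differences of Itgb1 and Itga6 was not tested.

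**Figure D4:**
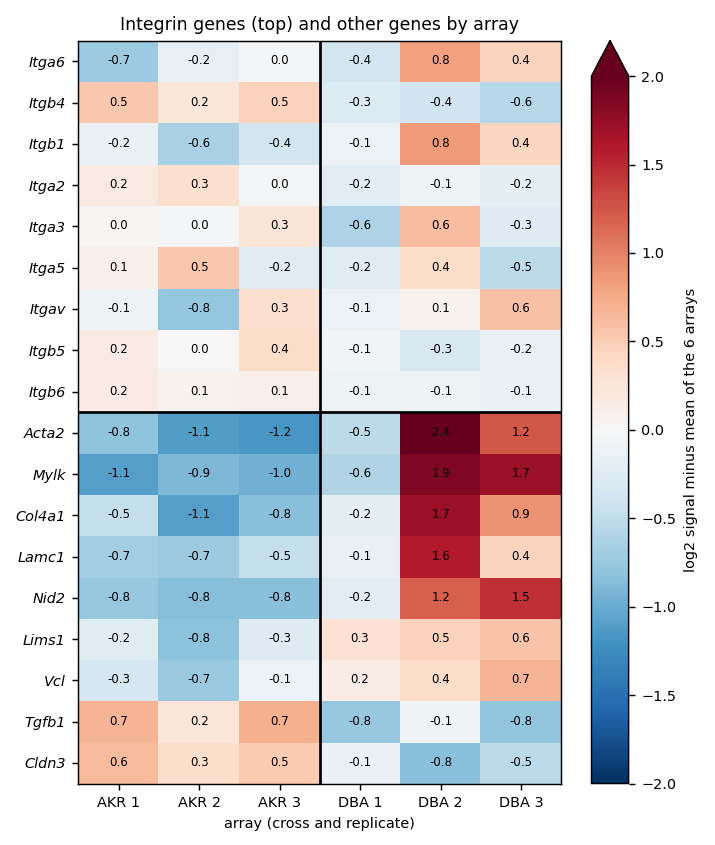
Log2 signal minus the mean of the 6 arrays for the brightest probe set of each of the 9 integrin genes (above the line) and of 9 other genes named in the text (below it), with AKR F1 arrays left and DBA F1 arrays right. Itgb1 and Itga6 are highest on DBA replicates 2 and 3, where Acta2, Mylk, Col4a1, Lamc1 and Nid2 are also highest, while Itgb4, Itgb5, Tgfb1 and Cldn3 are lower on the DBA arrays. The 9 other genes were picked after their values were seen. Some genes of the same lists that are not drawn ran otherwise, as Krt14, Krt5 and Col1a1 were lowest on DBA replicate 2.

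Among 23 measured ligand and basement membrane genes, none passed by limma. In AKR F1 tumours 12 lay higher and 11 lower, at a median of 0.082. The 4 with the smallest p all lay lower in AKR F1 tumours without overlap. They were the nidogen gene Nid2 (-1.63), which links laminin to collagen IV, the laminin chain genes Lamb1 (-1.26) and Lamc1 (-1.26), and the collagen IV gene Col4a1 (-1.60). Col4a1 read 10.54, 9.92 and 10.18 in AKR F1 tumours, against 10.82, 12.72 and 11.91 in DBA F1 tumours, so it too was highest on DBA replicates 2 and 3.

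Of 26 measured adhesion plaque and activation genes, none passed the limma threshold. In AKR F1 tumours 10 lay higher and 16 lower, at a median of -0.24. The mean of the list was 9.35 to 9.84 on the arrays, a signal level in decile 9. There the median difference of all probe sets was -0.21, so the list median was near that of the decile of its mean signal. Its genes were not matched to deciles gene by gene, and the other lists were not set against a decile. Lims1, whose product PINCH binds integrin-linked kinase, read 9.98, 9.41 and 9.96 in AKR F1 tumours, against 10.51, 10.68 and 10.79 in DBA F1 tumours (-0.87, limma adjusted p = 0.0924). Vcl, or vinculin, which couples talin to actin, differed by -0.80, Itgb1bp1, whose product ICAP-1 binds the beta1 tail, by -0.57, and Rsu1, a partner of PINCH, by -0.47, all without overlap. Among 9 hemidesmosome and tetraspanin partners none passed by limma, with 5 higher and 4 lower in AKR F1 tumours and a median of 0.065. The values were -0.41 for the tetraspanin gene Cd9, 0.99 for Krt5, -0.21 for the integrin-binding tetraspanin gene Cd151 and 0.71 for Krt14.

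In the list for TGF-beta that alphav integrins activate, none of 11 measured genes passed by limma. In AKR F1 tumours 4 lay higher and 7 lower, at a median of -0.086. Tgfb1, the ligand held latent until released, read 9.08, 8.64 and 9.10 in AKR F1 tumours, against 7.63, 8.31 and 7.60 in DBA F1 tumours (1.10, limma adjusted p = 0.0924). The signal transducer genes Smad3 (0.57) and Smad2 (-0.55) lay on opposite sides, and the latent TGF-beta binding protein gene Ltbp4 differed by 0.48, each without overlap.

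Other integrin subunit genes, 12 measured of 17, showed a median of 0.12 with 9 higher and 3 lower in AKR F1 tumours, and none passed by limma. Itga8, an RGD-binding partner of beta1 in mesenchymal and smooth muscle cells, read 7.90, 6.28 and 7.38 in AKR F1 tumours, against 7.91, 9.15 and 8.73 in DBA F1 tumours. Its difference was -1.41 (SE 0.471, limma adjusted p = 0.146), and AKR replicate 1 and DBA replicate 1 were level. The values were 0.33 for Itgb3, the other vitronectin receptor beta chain, 0.24 for the leukocyte gene Itgb7 and -0.46 for the myeloid gene Itgax.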

How the data were processed

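Total RNA from snap-frozen tumours was extracted with Trizol and biotin-labelled for Affymetrix arrays, per the labels' protocols. The authors deposited log2 values, 1 per probe set and array. The submitters' processing notes list MAS5 and RMA without saying which produced the table, and its log2 scale was inferred from its range, 3.65 to 14.73. How background was handled is not stated, so dim differences may be compressed. Precision is limited by 3 arrays per cross.

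The 64 control probe sets of 22690 were left out. Symbols came from the platform annotation, where 20380 probe sets had 1 symbol, 691 several and 1555 none. A gene was represented by its brightest probe set, the one with the highest mean over the arrays. A linear model was fitted to all 22626 probe sets with limma 3.58.1 (R 4.3.3), with moderated two-sided p-values adjusted by the Benjamini-Hochberg method and a threshold of 0.05. The model was tested on simulated data, with 50 changed probe sets at each size of change. It recovered 46% of log2 changes of 1 and 88% of log2 changes of 2, with 10 false calls. Changes of the size seen in most members can thus be missed. Subunit ratios were compared with exact permutation tests (scipy 1.17.1), and figures drawn with matplotlib 3.10.9.

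The members and gene lists were chosen with earlier results of these data known. The text names every member, the 4 genes with the smallest p in each pathway list and the 2 genes most like each member. Genes of the marker lists (luminal, basal, fibroblast, endothelial, macrophage, lymphocyte, muscle, adipocyte, salivary) and the few repeated in the heatmap were picked after their values were seen. No gene of a marker list passed, and the median differences were 0.15, -0.21, 0.085, -0.014, -0.26, 0.28, 0.82, -0.29 and 1.96 in that order. Alternatives were quantile normalization, median centring, bright probe sets alone, a trended and robust prior, array weights, averaged probe sets, an adjusted p of 0.10 and leaving out arrays.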

Additional observations from a re-analysis of the deposited data

How the results depend on the processing

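The number of the 24 integrin probe sets that passed limma's threshold was 0 as reported. It was 3 at an adjusted p of 0.10, 8 with array weights, 3 without AKR replicate 2 and DBA replicate 1 together, and 0 to 1 when each array was left out in turn. The number over all probe sets was 22 as reported, 810 at an adjusted p of 0.10, 36 after quantile normalization, 102 among probe sets brighter than the median, 3712 with array weights, 1 with each gene's probe sets averaged, 657 without both arrays and 1 to 263 with each array left out. The array weights, estimated gene by gene, gave AKR replicate 2 a weight of 0.192 and AKR replicate 1 one of 2.80. limma's default REML estimate of these weights did not converge and was not used, so the counts with array weights are uncertain. The count at an unadjusted p of 0.05 was 11 as reported, 14 with array weights, 9 after quantile normalization, 9 after median centring, 10 with a trended and robust prior, 11 without both arrays, 6 among probe sets brighter than the median (13 of the members were bright enough), 4 with 1 mean value per gene (9 members) and 5 to 11 with each array left out. With single arrays left out, the lowest counts came without AKR replicate 1 (6) and DBA replicate 3 (5). The share of all probe sets at that unadjusted p was taken for the fit as reported alone (26.1%). In the other settings these counts thus cannot be set against a background. The median difference stayed between 0.035 and 0.30 over 13 alternatives. Of 123 gene values under alternatives, 2 changed sign, both of Itga3 (-0.094 without DBA replicate 1 and -0.030 without that array and AKR replicate 2), whose value ran from -0.094 to 0.52 with each array left out. In 3 Itgb4 passed, namely at the looser adjusted p of 0.10, with array weights and without AKR replicate 2 and DBA replicate 1. In 118 direction and side of the threshold stayed as reported. The looser threshold, the trended and robust prior and the choice of bright probe sets leave each difference as it was. No sign could change in those settings, nor by averaging for Itga2 and Itgb4, which have a single probe set. The cause was not tested. No paired analysis was made, because the labels give no pairing between tumours of the crosses. The labels also give no replicate numbers, and those used here follow the order of the samples within each cross.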
